A study of Rattus norvegicus with 8 samples.

Results

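The comparison set the colon of rats with chemically induced colitis on an n-6 polyunsaturated fat diet against healthy colon on the same diet, and it took 4 of the 8 arrays of the series, chosen by their sample titles. The n-6 colitic group (2 arrays) and the healthy control group (2 arrays) were female Wistar rats of 14 weeks that had eaten sunflower oil, a source of n-6 fatty acids, for 8 weeks. The n-6 colitic group held 10 rats and drank 5% dextran sulphate sodium (DSS), a polymer that injures the colonic epithelium, for 7 days. The healthy group held 6 rats and received no DSS. RNA of 6 rats was pooled for each group, so by the labels the 2 healthy arrays carry the same 6 animals, and the labels do not say whether the 2 n-6 arrays share a pool. Within both groups, however, single genes lay far apart between the arrays, among them Hoxb13, a marker of bowel position, at log2 levels of 2.23 and -7.82 in healthy colon. The second of these readings was not well above background, and the gene was not among those tested. Whether arrays labelled as replicates differ in animals or in the stretch of colon sampled was not tested. The p-values below measure the spread between arrays, and what that spread holds beyond the assay is not known. The other 4 arrays of the study of 36 rats (colitis on an alpha-linolenic acid or a fish oil diet) entered the estimate of that spread and the filter on dim probes, which left 18173 genes to test, against 17202 with the n-6 and healthy arrays alone, and a few of their levels are given for orientation. One label field calls the tissue of every array healthy, the colitic ones included, and the groups follow the titles.

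In DSS colitis the surface of the colon ulcerates and bleeds, neutrophils and monocytes leave the blood through activated endothelium, and stromal cells lay down and remodel matrix. The healthy colonocyte burns butyrate and other fatty acids, absorbs salt and water, secretes chloride and bicarbonate, and seals its neighbours with claudins. RNA of whole colon mixes all of these cells and any blood that the tissue held. In such bulk tissue, fewer cells of a type and less RNA per cell cannot be told apart.

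A level here is the log2 of an array's processed probe signal minus the 75th percentile of that array, so a level of 0 is as bright as that percentile. A difference is the mean level of the 2 n-6 colitis arrays minus that of the 2 healthy arrays, and levels of different genes were not compared with each other, since each probe binds differently. Genes of the beta-globin family are among those with the clearest differences. The probes of 2 of them are shown 5′ to 3′ with their longest shared run in capitals.
Hbb-b1 probe: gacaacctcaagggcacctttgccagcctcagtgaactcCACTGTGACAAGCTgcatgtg
Hbe2 probe: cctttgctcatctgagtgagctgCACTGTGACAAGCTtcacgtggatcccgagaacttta
The Hbb-b1 probe lies on the minus strand at chr1:161597660-161597719 and the Hbe2 probe at chr1:161648636-161648695 of rat build rn4. They share a run of 14 bases, and 35 of their 44 aligned bases are identical. Signal of one globin transcript on the probe of another could therefore contribute to the readings, and its size was not tested.

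Of 18173 genes tested, 7 passed an adjusted p of 0.05 (0.0385%), 6 of them higher in n-6 colitis (0.0330%) and 1 lower (0.00550%). The 6 genes that rose were 4 globin chains, the red cell isoform of the first enzyme of haem synthesis (Alas2) and the AP-1 subunit Fosl1, and the gene that fell was Cyp1a1, a monooxygenase induced through the aryl hydrocarbon receptor. Without adjustment, p was under 0.05 for 2606 genes, 1198 of them higher (6.59%) and 1408 lower (7.75%), where chance alone would give 909. For groups of genes a plainer count was used: a gene was counted as apart when both n-6 arrays lay above, or both below, both healthy arrays and the means differed by at least 1 on the log2 scale. That held for 1273 genes upward (7.00%) and 1478 downward (8.13%), and the median difference of all genes was 0.03. Each count of genes apart in a list below is to be set beside these shares, and each count of higher or lower means beside that median.

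Hba-a1, an alpha-globin chain of haemoglobin, read 7.06 and 6.50 on the n-6 colitis arrays, against 1.95 and 1.81 on the healthy arrays. Both colitis arrays were far above both healthy arrays, and the pairs of each group were close together. The difference was 4.90 ± 0.31 (SE, n = 2 arrays per group; limma, adjusted p = 0.0095). A further Hba-a1 probe differed by 5.00. Hbb, a beta-globin chain, read 5.78 and 5.42 in n-6 colitis, against 1.06 and 0.85 in healthy colon, and rose by 4.64 ± 0.31 (limma, adjusted p = 0.0095). Its further probe differed by 4.0, which missed the threshold when probes were tested singly (limma, adjusted p = 0.062). Hbb-b1, the adult beta-globin whose probe is printed above, read 6.26 and 5.40 against 0.62 and 0.44, and rose by 5.30 ± 0.36 (limma, adjusted p = 0.0095). Hbe2, an epsilon-type globin of the same cluster, read 4.54 and 3.49 in n-6 colitis, against -1.24 and -1.36 in healthy colon, a rise of 5.31 ± 0.40 (limma, adjusted p = 0.014). In all 4 globin genes replicate 1 of n-6 colitis was the higher array. The alpha-linolenic acid and fish oil colitis arrays read between 2.43 and 2.96 for Hba-a1, nearer to the healthy arrays than to the n-6 ones.

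Alas2, the erythroid 5-aminolevulinate synthase, read 0.18 and -0.67 in n-6 colitis, against -5.36 and -6.19 in healthy colon, where neither array was well above background. Its level was at least 46.4-fold higher in n-6 colitis (limma, adjusted p = 0.040). For such a bound each healthy array counted at the higher of the probe's own reading and the dimmest signal well above background on that array, and for Alas2 its own readings were the higher. Of 23 red cell genes on the array, 12 passed the filter on dim probes, Alas2 through the n-6 arrays alone. Of these 12, 7 were apart upward and none downward, with a median difference of 2.98. The 7 include the 5 red cell genes already past the threshold, so the count is not separate support for them. Hbb-bs, another adult beta-globin, differed by 4.80 ± 0.54 (limma, adjusted p = 0.071), with 3.96 and 2.70 in n-6 colitis and -1.26 and -1.69 in healthy colon. Ahsp, the chaperone of free alpha-globin, differed by 1.32. The regulators and membrane genes of red cell precursors gave smaller values: 0.68 for the transcription factor Klf1, 0.71 for Gata1, -0.08 for the erythropoietin receptor Epor and 0.48 for glycophorin C (Gypc). Genes for glycophorin A, band 3 (Slc4a1) and Epb42 were too dim to be tested. The other 8 haem synthesis enzymes, which all cells use, differed by -0.99 to 0.53, and none of them was apart. On the linear scale the 4 red cell markers tested (Hba-a1, Hbb, Alas2 and Ahsp) summed to 190 and 135 in n-6 colitis, against 6.37 and 5.62 in healthy colon. These sums are almost wholly the bright Hba-a1 and Hbb probes, both already past the threshold.

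**Figure D1:**
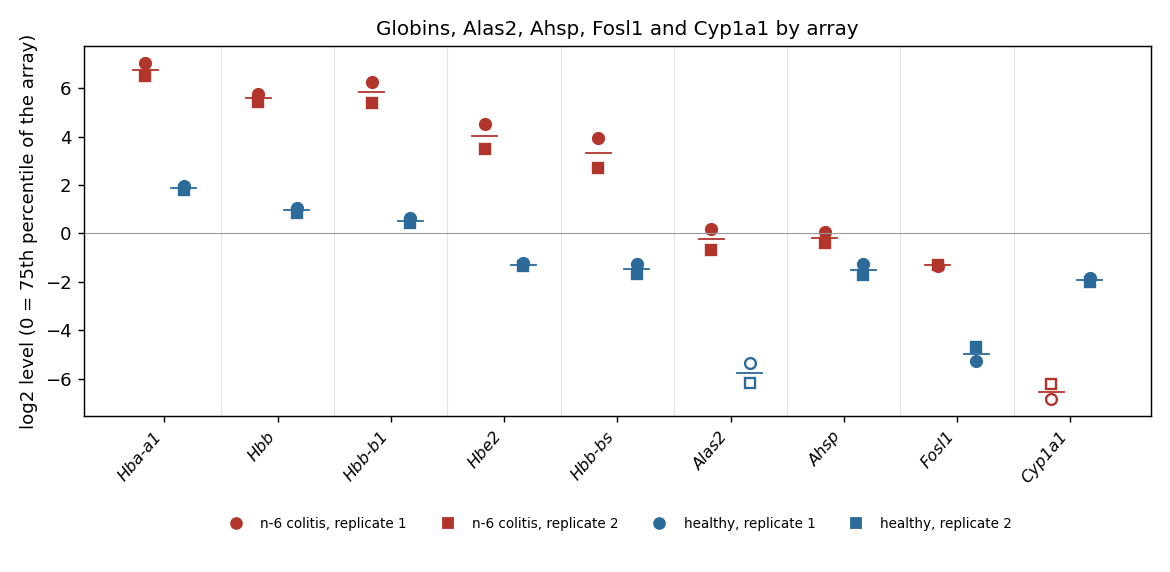
Log2 level (vertical axis) of the 7 genes past the threshold and of Hbb-bs and Ahsp on the 2 n-6 colitis arrays (left of each pair) and the 2 healthy arrays (right). Circles are replicate 1, squares replicate 2, horizontal bars group means, and open symbols mark a group in which neither array was well above background. Hba-a1 lies at 7.06 and 6.50 in n-6 colitis and at 1.95 and 1.81 in healthy colon.

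The promoters of the alpha- and beta-globin genes, which moved together, are shown from RefSeq (build GRCr8) for the 150 bases before each start, with the TATA box in capitals.
Hbb-b1 promoter: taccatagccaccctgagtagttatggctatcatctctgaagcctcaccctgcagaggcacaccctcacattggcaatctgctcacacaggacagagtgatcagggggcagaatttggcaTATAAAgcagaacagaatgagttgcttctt
Hba-a1 promoter: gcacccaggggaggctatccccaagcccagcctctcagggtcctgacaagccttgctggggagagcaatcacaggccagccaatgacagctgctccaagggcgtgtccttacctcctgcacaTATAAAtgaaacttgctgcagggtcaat
The Hbb-b1 stretch is chr1:167643521-167643670 and the Hba-a1 stretch chr10:15842581-15842730, both on the minus strand. TATAAA, searched on the gene's own strand, starts 30 bases before the Hbb-b1 start and 28 bases before the Hba-a1 start. It occurs in 8.80% of the 33469 rat promoters of 300 bases in the table (250 before to 50 after the start).

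Fosl1 (FRA-1), an AP-1 subunit induced by growth factors and tissue injury, read -1.34 and -1.31 in n-6 colitis, against -5.28 and -4.71 in healthy colon. The 2 colitis arrays nearly coincided, and only 1 of the 2 healthy arrays was well above background. The rise was 3.67 ± 0.35 (limma, adjusted p = 0.040). Of 22 AP-1 and immediate early genes, 5 were apart upward and 1 downward, with a median difference of 0.57. Of all genes 7.00% were apart upward and 8.13% downward. The 5 include Fosl1, so the count is not separate support for it. Egr2, a zinc-finger immediate early factor, differed by 2.65 and the lymphoid AP-1 partner Batf by 1.40. Egr1 differed by 1.75 on one probe and by -0.01 on another. The gene counted downward was Fosb, at -1.20.

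Cyp1a1 was not well above background on either n-6 colitis array, where it read -6.86 and -6.22, against -1.86 and -2.03 on the healthy arrays. It was at least 19.6-fold lower in n-6 colitis (limma, adjusted p = 0.031). The arrays of the other 2 colitis groups also lay below the healthy ones, at -6.14 to -5.25. Cyp1a1 is a standard readout of the aryl hydrocarbon receptor, a sensor of dietary and microbial ligands in the gut. Of the 12 tested genes of this receptor and of xenobiotic handling, 7 were apart downward and none upward. Their median was -1.19, at -1.82 on replicate 1 of n-6 colitis and -0.77 on replicate 2. The 7 include Cyp1a1 itself, which passed the filter on dim probes through the healthy arrays alone. The count is therefore not separate support for it. The receptor itself (Ahr) differed by -1.15, its repressor Ahrr by -1.19, and the apical efflux pump Abcg2 by -2.46. The nuclear receptor Nr1i3 was at least 4.35-fold lower, with healthy arrays at -2.45 and -3.91. The list was not uniform: 10 of the 12 had a lower mean and 2 a higher one. Aldh3a1, another receptor target, was higher on replicate 1 only: it read 1.79 and -4.02 in n-6 colitis, against -3.86 and -3.72 in healthy colon.

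None of the genes in the following paragraphs passed the threshold over all genes, whatever the size of its difference, and their values are given as measured. An exact permutation test of a single gene cannot go below 0.333 with 2 arrays against 2, and none was run. The count of 7 itself moved with the arrays in the limma fit: it was 23 without replicate 2 of n-6 colitis, and 0 without replicate 1 of n-6 colitis, without either healthy array, without either fish oil array or with only the 4 arrays compared. In those fits without a call, 1424 to 2260 genes still had an unadjusted p under 0.05. Some of the genes named were well above background on 1 array of a group only, which makes their differences less certain. In n-6 colitis these include Ahr, Cldn8, Egf, Gata1, Hoxb13, Nr1d2, Peg12, Sft2d2 and Slc9a3. In healthy colon they include Ccr1, Chi3l1, Csf3r, Cxcl1, Gata1, Hoxb13, Hoxd13, Il36b, Osmr, S100a8 and Tpsab1. Some genes passed the filter on dim probes only through the group in which they were brighter. Among them are Ccr1, Cxcr1, Il36b and Sele through the n-6 arrays, and Cldn2, Ifng, Oas3 and Rnf43 through the healthy arrays. They are counted as apart in their lists, so these counts describe the lists and test nothing.

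Chemokines that attract neutrophils were far higher on both n-6 arrays. Cxcl2 read 3.33 and 1.46 on the n-6 arrays, against -3.37 and -3.34 on the healthy arrays, a difference of 5.75 ± 0.89 (limma, adjusted p = 0.11). Cxcl3 read 2.67 and 2.10 in n-6 colitis, against -2.51 and -3.46 in healthy colon. Cxcl1 read 2.58 and -1.28 in n-6 colitis, against -4.70 and -4.54 in healthy colon. In all 3 ligands both colitis arrays lay above both healthy arrays, and in Cxcl1 the n-6 arrays were further from each other than in the rest. Cxcr1, a CXC receptor on neutrophils, was not well above background in healthy colon and was at least 2.64-fold higher in n-6 colitis. Its n-6 readings were dim, at -5.06 and -4.56. Cxcr2, another CXC receptor on neutrophils, was not well above background on any n-6 or healthy array. Platelet factor 4 (Pf4), a CXC ligand stored in platelets, differed by 2.89. Cxcl11, a chemokine induced by interferon gamma, lay on the other side, at -2.05. Of the 17 CXC ligands and receptors tested, 6 were apart upward and 4 downward, and the median was 0.70, at 1.15 on replicate 1 of n-6 colitis and 0.07 on replicate 2.

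Cxcl1 and Cxcl2 are textbook NF-kB targets, and the 150 bases before each start are shown with the NF-kB matches in capitals (RefSeq, build GRCr8).
Cxcl1 promoter: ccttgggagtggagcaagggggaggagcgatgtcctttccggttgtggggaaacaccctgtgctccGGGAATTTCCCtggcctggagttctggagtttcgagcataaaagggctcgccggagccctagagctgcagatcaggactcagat
Cxcl2 promoter: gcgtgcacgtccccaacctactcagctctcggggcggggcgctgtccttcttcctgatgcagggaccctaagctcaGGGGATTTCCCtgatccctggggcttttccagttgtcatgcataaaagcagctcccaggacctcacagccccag
These are chr14:17479322-17479471 and chr14:17467256-17467405, both on the minus strand. The capitals begin 84 bases before the Cxcl1 start and 74 bases before the Cxcl2 start. In each promoter they hold matches at 2 overlapping positions, counted over both strands. A match to the NF-kB motif on either strand occurs in 7.51% of the 33469 promoters. The promoters of Il1rn, Timp1, Sele, Alas2 and Fosl1 hold no NF-kB match and no TGANTCA (AP-1) in their windows, which says nothing about the factors.

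Of 23 CC chemokines and receptors, 13 were apart upward and 1 downward, with a median of 1.39. The monocyte attractant Ccl2 read 3.15 and 1.82 in n-6 colitis, against 0.23 and -0.08 in healthy colon. Ccl3, made by macrophages, differed by 2.23 and the rodent monocyte attractant Ccl12 by 2.61. The chemokine receptor Ccr1 differed by 1.92. Ccl5, a product of T cells, differed by -0.02 with the n-6 arrays at 2.69 and 4.86 on either side of healthy colon. In the interleukin-1 family 6 of 14 genes were apart upward and 1 downward. Il1rn, the receptor antagonist, read 4.09 and 3.82 in n-6 colitis, against 0.72 and 0.86 in healthy colon, a difference of 3.16 ± 0.42 (limma, adjusted p = 0.094). The agonist Il1b differed by 2.01, the decoy receptor Il1r2 by 1.82 and Il36b, an epithelial agonist, by 2.05. Caspase-1 (Casp1), which cleaves pro-interleukin-1 beta, was the member apart downward, at -1.16.

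**Figure D2:**
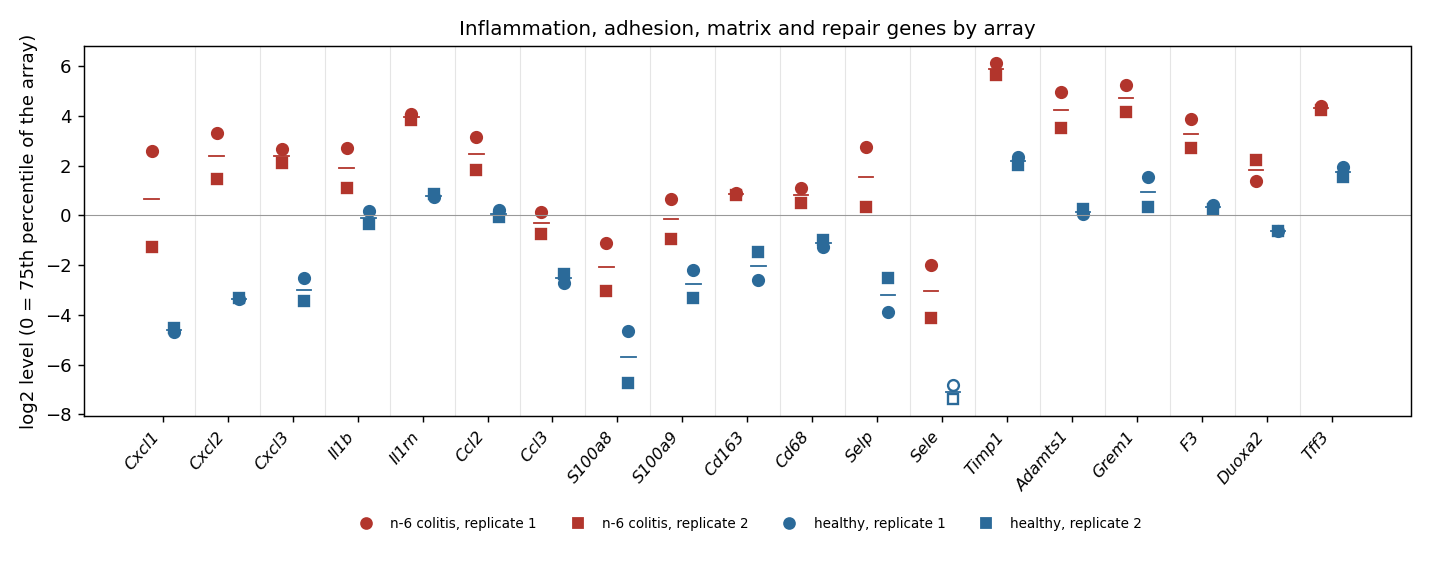
Log2 level (vertical axis) of genes of chemoattraction, myeloid cells, endothelium, matrix, coagulation and epithelial defence on the 2 n-6 colitis arrays (left of each pair) and the 2 healthy arrays (right). Symbols are as in the plot of genes past the threshold: circles replicate 1, squares replicate 2, bars group means, open symbols a group with neither array well above background. Cxcl2 lies at 3.33 and 1.46 in n-6 colitis and at -3.37 and -3.34 in healthy colon.

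In the interleukin-6 family 6 of 14 genes were apart upward and none downward. Examples were the interleukin-6 receptor (Il6r) at 1.41, the oncostatin M receptor (Osmr) at 1.66 and the STAT3 target kinase Pim1 at 1.38. Tumour necrosis factor itself (Tnf) differed by 0.97, and 5 of 17 genes of the TNF and NF-kB list were apart upward.

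Of the genes of neutrophils, 13 of 16 tested had a higher mean in n-6 colitis. The calprotectin subunits, which fill the neutrophil cytosol, differed by 3.62 (S100a8) and 2.62 (S100a9), and the receptor for granulocyte colony-stimulating factor (Csf3r) by 1.63. Of the phagocyte oxidase, Ncf4 differed by 1.79 and the catalytic subunit Cybb by 1.23, while Cyba, which epithelium also makes, differed by 0.33. In this list of neutrophil products and oxidase, 10 genes were apart upward and none downward, with a median of 1.45. Cxcr2, Fpr1 and Mmp8, which are defining neutrophil markers, did not pass the filter on dim probes. The neutrophil defensin RatNP-3b, outside this list, went the other way and was at least 26.9-fold lower in n-6 colitis. Its healthy arrays were far apart, at -2.82 and 1.72.

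All 19 macrophage genes tested had a higher mean in n-6 colitis, with differences of 0.27 to 2.88 and a median of 1.0, and 9 were apart upward. Cd163, the scavenger receptor for haemoglobin bound to haptoglobin, read 0.90 and 0.81 in n-6 colitis, against -2.59 and -1.47 in healthy colon. Cd68, a lysosomal marker, read 1.12 and 0.51 against -1.27 and -0.99. The chitinase-like protein Chi3l1 differed by 2.84, and the complement C1q chain C1qb by 1.36 with both n-6 arrays at 4.67. On the linear scale, the 7 macrophage markers summed to 46.5 and 49.4 in n-6 colitis, against 21.0 and 22.2 in healthy colon, so the 2 colitis arrays were alike in this respect. Beside Cd163, the haem-degrading enzyme Hmox1 differed by 1.57 and the iron carrier transferrin (Tf) by 2.20. The ferritin chains Fth1 and Ftl1 differed by -0.20 and 0.00. Of the 20 haem and iron handling genes tested, 13 had a higher mean and 7 a lower one, with a median of 0.22. Of these 20, 6 were apart upward and none downward.

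The selectins that slow leukocytes on the vessel wall were higher on both n-6 arrays. P-selectin (Selp) read 2.73 and 0.32 in n-6 colitis, against -3.89 and -2.50 in healthy colon, and E-selectin (Sele), dim in healthy colon, read -1.98 and -4.11 in n-6 colitis and was at least 8.97-fold higher. The firm adhesion molecules Icam1 and Vcam1 differed by 1.48 and 2.17, and the leukocyte integrin chains Itgam and Itgb2 by 1.28 and 2.27. Kdr, a vascular endothelial growth factor receptor that marks endothelium, differed by 0.09. Of 17 adhesion and endothelial genes, 9 were apart upward and none downward.

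Matrix and wound genes lay largely on the higher side. Timp1, the tissue inhibitor of metalloproteinases, had the smallest p among the metalloproteases and inhibitors.
Timp1 probe: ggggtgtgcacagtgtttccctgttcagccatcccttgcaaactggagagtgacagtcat
This probe of 60 bases spans 1004 bases at chrX:12542700-12543703 on the minus strand of rn4, so it crosses at least 1 intron and reads spliced RNA. Timp1 read 6.13 and 5.66 in n-6 colitis, against 2.36 and 2.03 in healthy colon, a difference of 3.70 ± 0.44 (limma, adjusted p = 0.071). The secreted proteases that cut proteoglycans differed by 4.09 (Adamts1), 3.69 (Adamts9) and 1.46 (Adamts5), and the gelatinase Mmp2 by 1.81 on one probe and 0.90 on another. Of 20 metalloproteases and inhibitors, 11 were apart upward and none downward, with a median of 1.51, which was 1.93 on replicate 1 of n-6 colitis and 0.67 on replicate 2. Igfbp4, a binding protein of insulin-like growth factors, read 5.42 and 5.24 in n-6 colitis, against 2.32 and 2.19 in healthy colon.

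Of 28 collagens and matrix genes, 15 were apart upward and 1 downward, with a median of 1.1. The proteoglycan versican (Vcan) differed by 3.03, fibrillar collagen Col3a1 by 1.69 and Col18a1, the source of endostatin, by 1.84. Biglycan (Bgn) differed by 1.47 on one probe and 0.19 on another. Among 12 fibroblast markers 5 were apart upward and none downward. Grem1, a secreted antagonist of bone morphogenetic proteins made by stroma under the crypts, read 5.24 and 4.17 in n-6 colitis, against 1.54 and 0.34 in healthy colon, and Pdpn, a marker of reticular stroma, differed by 1.94 on one probe and 0.29 on another. The growth factor receptors Pdgfra and Pdgfrb differed by 1.1 and 0.59. In the same samples the 16 smooth muscle genes had a median of 0.12, with 2 apart upward, where 7.00% of all genes were. That median was 0.44 without replicate 1 of healthy colon and -0.23 without its replicate 2.

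In coagulation and plasminogen activation, 6 of 13 genes were apart upward and none downward. Tissue factor (F3), which starts the extrinsic pathway, read 3.89 and 2.69 in n-6 colitis, against 0.41 and 0.24 in healthy colon. Of 18 complement genes 8 were apart upward and none downward. C5ar1, the receptor of the C5a fragment, differed by 2.30, and Cd55, which protects cell surfaces from complement, read 3.87 on both n-6 arrays, against 2.02 and 1.68 in healthy colon. The C1 inhibitor Serping1 differed by 1.18.

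Epithelial growth and defence genes went in both directions. The EGF receptor ligand Ereg differed by 3.03, Areg by 1.60 and the receptor Egfr by 1.15, while Egf itself differed by -1.99. Duoxa2, the maturation factor of the dual oxidase, read 1.38 and 2.23 in n-6 colitis, against -0.61 and -0.62 in healthy colon, and the oxidases Duox1 and Duox2 differed by 1.99 and 0.95. The trefoil peptide Tff3 of goblet cells differed by 2.60 and the lectin Itln1 by 3.74. Retnlb, a goblet cell protein with bactericidal activity, was at 3.30 and 3.20 in n-6 colitis, but the healthy arrays were far apart, at -0.90 and -6.32. Against these, the goblet cell regulators Spdef and Atoh1 differed by -1.74 and -1.36, and the major mucin Muc2 by 0.32, -0.57 and -1.59 on its 3 probes. Of 14 goblet cell genes 3 were apart in each direction, where 7.00% of all genes were apart upward and 8.13% downward.

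In the prostanoid pathway, which turns arachidonic acid of the n-6 family into prostaglandins, 7 of 21 genes were apart upward and 3 downward. The phospholipase Pla2g4a, which frees arachidonic acid, differed by 1.74, the prostacyclin synthase Ptgis by 1.40 and the prostaglandin E2 receptor Ptger2 by 1.68. Hpgd, which inactivates prostaglandins, differed by -1.78 and the synthase Ptges2 by -1.65. Cyclooxygenase 1 (Ptgs1) differed by 1.57 on one probe and -0.23 on another. Of the 6 lipoxygenase and leukotriene genes tested, none was apart in either direction, and Alox5 differed by 0.05.

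Genes of the absorbing and secreting colonocyte lay mostly lower. Of 33 genes of ion and water transport, 17 were apart downward and 2 upward, with a median of -1.34, at -1.82 on replicate 1 of n-6 colitis and -0.65 on replicate 2. Cftr, the chloride channel of crypt secretion, read -4.39 and 0.81 in n-6 colitis, against 3.48 and 3.37 in healthy colon. The 2 n-6 arrays differed widely, but both lay below healthy colon, and a further probe differed by -2.73. Gucy2c, the guanylin receptor that drives this channel, read -2.14 and 0.43 against 2.11 and 2.69. The basolateral partners of secretion were lower as well, with the bicarbonate cotransporter Slc4a4 at -2.86, the chloride loader Slc12a2 at -1.52 and the potassium channel Kcnq1 at -1.77. The sodium-proton exchanger Slc9a3 of absorption differed by -2.58. Guanylin itself (Guca2a) did not separate, at 6.52 and 8.37 in n-6 colitis, against 8.05 and 7.81 in healthy colon.

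Of 33 genes of fatty acid oxidation and ketogenesis, 16 were apart downward and 1 upward, with a median of -1.0. On replicate 1 of n-6 colitis alone the median was -1.48, and on replicate 2 it was -0.57. Acadm, the medium-chain acyl-CoA dehydrogenase, read 1.74 and 2.53 in n-6 colitis, against 3.75 and 3.94 in healthy colon, a difference of -1.71. Both colitis arrays lay below both healthy arrays. The mitochondrial thiolase Acat1 differed by -1.56. Ppara, the nuclear receptor that drives these genes in liver, was too dim on both n-6 arrays to be measured above background and was at least 3.01-fold lower. Pck1, the gluconeogenic carboxykinase, read -2.95 and -1.54 in n-6 colitis, against 1.20 and 1.96 in healthy colon. Of 25 respiratory chain genes 1 was apart downward (Atp5f1b, at -1.90), where 8.13% of all genes were. A lower mean was seen in 23 of the 25, with a median of -0.29, at -0.61 on replicate 1 of n-6 colitis and -0.06 on replicate 2.

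Junction and identity genes depended on the array. Of 28 claudins and junction genes 8 were apart downward and none upward, but the median was -1.30 on replicate 1 of n-6 colitis and 0.02 on replicate 2. The pore-forming Cldn2 was at least 20.6-fold lower, Cldn8 of the distal colon differed by -3.08, Cldn12 by -1.86 and cingulin (Cgn) by -2.09, whereas the abundant Cldn3 and E-cadherin (Cdh1) differed by 0.05 and -0.03. Of 20 epithelial identity and brush border genes 6 were apart downward and none upward. Keratin 8 (Krt8) read 1.69 and 3.09 in n-6 colitis, against 3.90 and 4.26 in healthy colon. Cdx2, the master regulator of intestinal identity, read 0.81 and 4.95 against 5.73 and 5.42, so its difference of -2.69 came mostly from replicate 1.

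Wnt target genes of the crypt base were split. Axin2, at -1.94 and -3.11 in healthy colon, was at least 8.81-fold lower in n-6 colitis and Rnf43 at least 3.16-fold lower, both feedback inhibitors of Wnt signalling, and the stem cell factor Ascl2 read -2.88 and -4.06 in n-6 colitis, against -0.55 and -1.03 in healthy colon. The inhibitor Nkd1 differed by 1.43 and Smoc2 by 1.27. In all, 5 of 18 genes were apart downward and 3 upward. Id1 and Id2, targets of bone morphogenetic proteins, differed by -2.44 and -1.66.

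**Figure D3:**
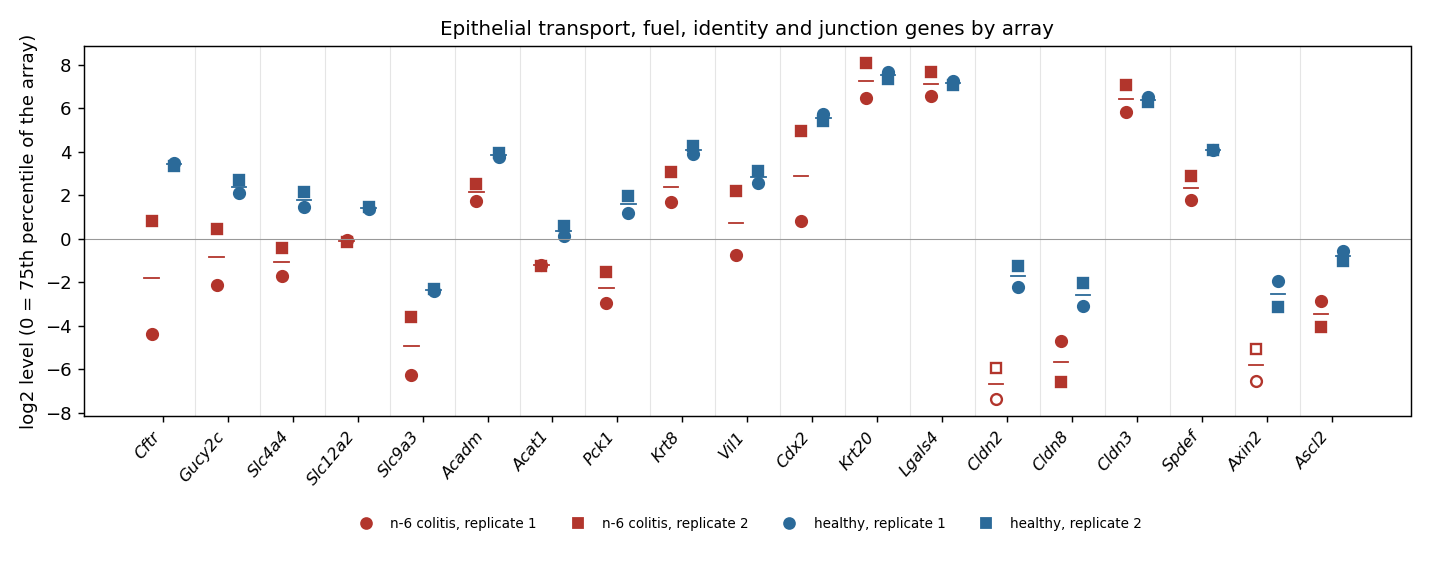
Log2 level (vertical axis) of genes of transport, fuel use, epithelial identity, junctions and crypt regulation on the 2 n-6 colitis arrays (left of each pair) and the 2 healthy arrays (right). Circles are replicate 1, squares replicate 2, bars group means, and open symbols a group with neither array well above background. Acadm lies at 1.74 and 2.53 in n-6 colitis and at 3.75 and 3.94 in healthy colon, and the n-6 squares of Cdx2, Vil1 and Krt20 lie near the healthy symbols.

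Interferon genes lay mostly lower, on replicate 1 of n-6 colitis far more than on replicate 2. Of 42 genes of the interferon response and antigen processing, 13 were apart downward and none upward, with a median of -0.57, but that median was -1.14 on replicate 1 and -0.09 on replicate 2. Ifng, the cytokine itself, did not stand well above background on either n-6 array and was at least 3.34-fold lower. The antiviral gene Oas3 was at least 3.04-fold lower, Oas1a differed by -1.84, the deconjugase Usp18 differed by -2.05 and the RNA sensor Ifih1 by -1.41. The membrane proteins Ifitm3 and Ifitm7, which block virus entry and are outside this list of 42, went the other way. Ifitm3 read 3.35 and 2.75 in n-6 colitis, against -0.59 and -0.34 in healthy colon, and Ifitm7 differed by 3.38. Of 9 MHC class II genes none was apart upward and 1 downward. Of 25 T cell and cytotoxic genes 3 were apart upward, among them the granzyme Gzmk at 1.5 and perforin (Prf1) at 1.44. In that list 15 genes had a higher mean and 10 a lower one, with a median of 0.32. Of all genes 7.00% were apart upward and 8.13% downward, so these small counts say little about either list.

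The circadian list showed the output genes of the clock lower: Nr1d1 at -1.93, Nr1d2 at -2.08 and Dbp at -1.52, with the opposing repressor Nfil3 at 1.78. Of 15 clock genes 4 were apart downward and 1 upward, where 8.13% of all genes were apart downward and 7.00% upward. The sources used here do not state the time of day of sampling.

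The 2 n-6 colitis arrays were less alike than the 2 healthy arrays. Their levels correlated at 0.948 over the genes tested, against 0.969 for the healthy pair. More than 2 on the log2 scale separated the n-6 arrays for 962 genes, and the healthy arrays for 649. Replicate 2 of n-6 colitis correlated with the healthy arrays at 0.957 and 0.954, and replicate 1 at 0.925 and 0.915. Replicate 2 also had fewer probes well above background, 59.8% against 68.3% on replicate 1 and 66.7% and 69.2% on the healthy arrays.

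**Figure D4:**
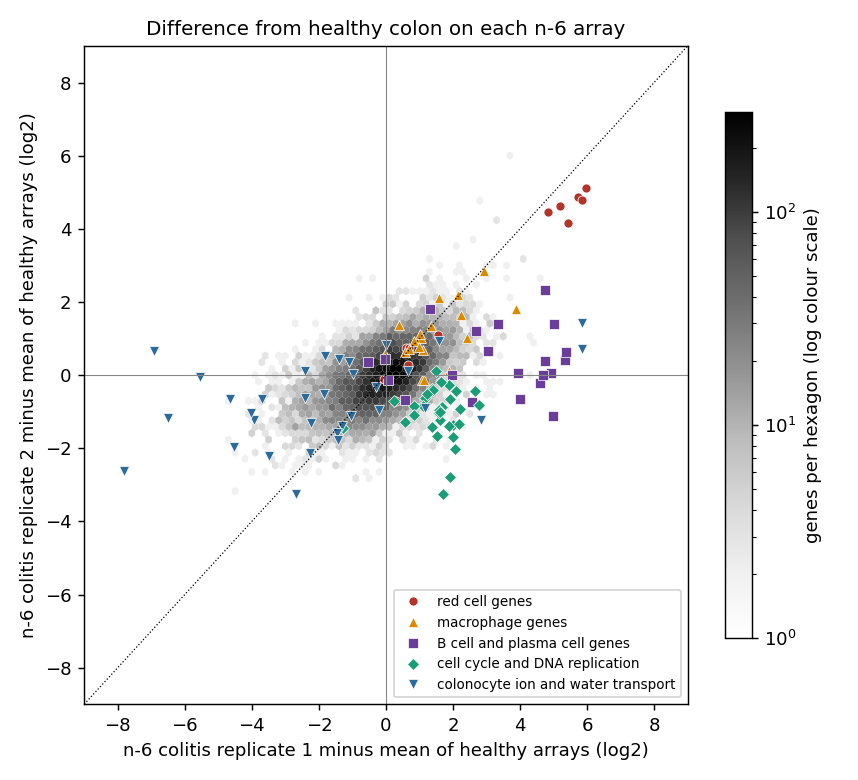
Difference from the healthy mean on replicate 1 (horizontal axis) against replicate 2 (vertical axis) of n-6 colitis for the genes tested, on the log2 scale, with the density of genes in grey and the members of 5 lists in colour. The globin genes and Alas2 lie near the diagonal at the upper right and the other red cell genes nearer the origin. The median of cell cycle genes lies at 1.63 on replicate 1 and -0.94 on replicate 2, and that of B cell genes at 3.94 and 0.36, with some B cell genes such as Ms4a1 well up on both.

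B cell and cell cycle genes showed what this meant for a gene group. Of 21 B cell and plasma cell genes 9 were apart upward, but the median was 3.94 on replicate 1 of n-6 colitis and 0.36 on replicate 2. Cd79b, a chain of the B cell receptor complex, read 1.48 and -3.39 in n-6 colitis, against -3.15 and -3.77 in healthy colon. Ms4a1 (CD20) read -0.92 and -3.32 and was at least 11.6-fold higher than in healthy colon. Bcl6, a regulator of germinal centre B cells, read 4.39 and 2.90 in n-6 colitis, against 1.48 and 1.92 in healthy colon. The 5 B cell markers summed to 14.3 on replicate 1 and 0.753 on replicate 2, against 0.487 and 0.580 in healthy colon. Of 33 cell cycle genes none was apart upward and 1 downward, since the median was 1.63 on replicate 1 and -0.94 on replicate 2. Mki67, the proliferation marker, read 3.53 and 1.01 in n-6 colitis, against 1.92 and 1.86 in healthy colon, and topoisomerase Top2a 1.64 and -3.31 against -0.24 and 0.10.

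Epithelial genes split the other way. Cyp4f1, a fatty acid hydroxylase, read -4.88 and 1.72 in n-6 colitis, against 4.07 and 4.67 in healthy colon, and the dipeptidase Dpep1 read 0.37 and 5.64 against 5.59 and 5.36. The 11 markers of colon epithelium summed to 253 and 693 in n-6 colitis, against 619 and 668 in healthy colon. Such sums are set mostly by the brightest probes: 10 of the 11 had a lower mean in n-6 colitis, with a median difference of -1.34. The 5 smooth muscle markers summed to 528 and 588 in n-6 colitis, against 608 and 389, and the 5 fibroblast markers tested to 146 and 83.2, against 49.3 and 33.4. The part of these cell makeups in the gene differences above was not tested.

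Some genes that mark position along the colon separated arrays within both groups. Hoxb13, of the hindmost bowel, read 2.94 and -5.90 in n-6 colitis, against 2.23 and -7.82 in healthy colon. Replicate 2 of each of these groups was not well above background, and Hoxb13 did not pass the filter on dim probes. The gene was singled out after its values were seen. Hoxd13 read -0.86 and -4.43 against -1.78 and -6.25, and Hoxb6 -0.47 and 2.50 against -0.85 and 3.57. In both groups replicate 1 was the higher array for Hoxb13 and Hoxd13 and the lower for Hoxb6. All 8 arrays came from 1 slide and 1 scan, with both n-6 arrays in its lower row and both healthy arrays in its upper row, so slide row and group cannot be told apart.

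**Figure D5:**
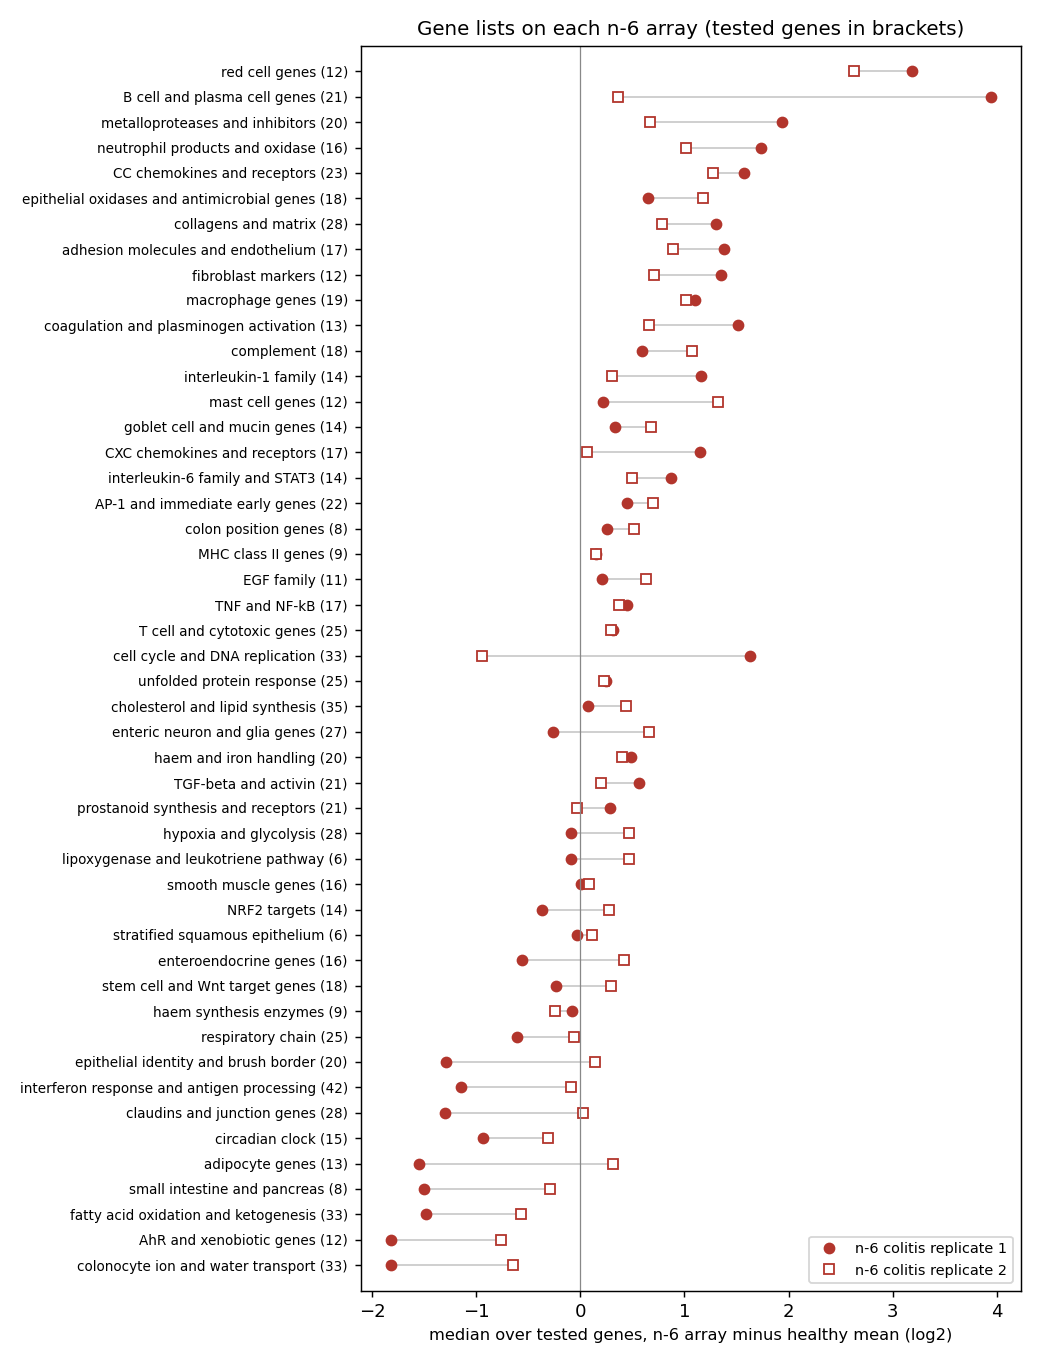
Median difference from the healthy mean over the tested genes of each of 48 lists, on the log2 scale (horizontal axis), for replicate 1 (circles) and replicate 2 (squares) of n-6 colitis. Red cell genes lie at 3.19 and 2.63, B cell genes at 3.94 and 0.36, and colonocyte transport at -1.82 and -0.65.

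Several lists lay close to the middle of all genes. The unfolded protein response had a median of 0.30, hypoxia and glycolysis 0.19, cholesterol and lipid synthesis 0.28, and NRF2 targets 0.04. Without replicate 1 of n-6 colitis these 4 medians lay between 0.23 and 0.47, and without its replicate 2 between -0.37 and 0.25. Within them single genes lay further out. The lactate exporter Slc16a3 differed by 2.92, the cystine transporter Slc7a11 by 3.02 and Ern2, an endoplasmic reticulum stress sensor of goblet cells, by -2.84. Among 27 genes of enteric neurons and glia 5 were apart upward, with the neuropeptide gene Tac1 at 1.47. Of 12 mast cell genes 3 were apart upward, including the tryptase Tpsab1 at 2.20 and the histamine-forming Hdc at 1.67. Of 16 enteroendocrine genes 2 were apart upward, and Pcsk1, a prohormone convertase, read 3.94 and 4.75 in n-6 colitis, against -3.47 and 1.18 in healthy colon. Of 21 genes of TGF-beta and activin signalling 4 were apart upward and 3 downward, with the activin subunit Inhba at 1.82. Beside these small counts, 7.00% of all genes were apart upward and 8.13% downward. The 13 adipocyte genes had a median of -0.75, at -1.55 on replicate 1 and 0.31 on replicate 2.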

How the data were processed

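RNA of whole rat colon was hybridised to Agilent 1-colour arrays of 60-base probes, 8 arrays on 1 slide. Per the file headers, the authors' scanner files hold spot intensity values from Agilent Feature Extraction 11.5.1.1, and gProcessedSignal, the intensity used here, is background-subtracted. The deposited value table holds log2 values centred near the 75th percentile of each array, as its columns show, and served as an alternative only. Log2 gProcessedSignal of the 30367 non-control probes, less outlier spots, was scaled to each array's 75th percentile. Probes were kept if both arrays of some group of the 4 stood well above background (20803 probes), and a gene was its brightest such probe (18173 genes, 13156 with a symbol). Of 2365 genes with several probes, 1615 had the same sign on all.

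Group means were fitted to all 8 arrays with limma 3.58.1 (lmFit, eBayes; R 4.3.3), and p-values were adjusted by Benjamini-Hochberg over all genes; the fit had 4 residual degrees of freedom. The script was tested on simulated data. No saturated spots were found, and 59.8% to 69.2% of probes were well above background on the 4 arrays compared. Precision is limited by the number of arrays.

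Named genes are those past the threshold, the leading genes by p or by bound in each direction, up to 6 by p and 3 by signal of each list (all tested members of lists of at most 12), and genes on which the n-6 arrays differed most. The comparison, the 48 lists and these rules were chosen with earlier results of these data known. Alternatives covered background correction, scaling, filters, probe choice, variance prior, arrays fitted, replicate block, the deposited table and leaving out each array. A few genes of these lists are not reported by name here.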

Additional observations from a re-analysis of the deposited data

How the results depend on the processing

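Of 18173 genes, 7 passed in limma's fit of all 8 arrays. The count rose to 69 after normexp background correction (52 higher, 17 lower), 29 with limma's robust prior and intensity trend, and 13 after centring on medians, and was 4 without the filter on dim probes, 2 in the deposited value table and 0 with only the 4 arrays compared (where 2070 genes had an unadjusted p under 0.05). Leaving out each array in turn gave 0 to 23. Of the 7 genes, 5 still passed after normexp, 4 without the filter and 2 in the deposited table. The cause of these moves was not tested. That centring moved the median of all genes to 0.17, against 0.03, and normexp to 0.10. Of 176 genes named, 156 kept their sign under all 20 alternatives, none of the 20 others having an unadjusted p under 0.05. The medians of 43 of the 48 lists kept their sign under the 12 alternatives other than leaving out an array, and 5 with small medians did not.

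With the replicate number as a block, 13 genes passed, 5 of the 7 among them. The replicate 1 minus replicate 2 deviations of n-6 colitis and healthy colon correlated at 0.127 over genes, and between the other pairs of groups at -0.168 to 0.470, among them 0.470 for healthy colon with the alpha-linolenic acid group. Not every pair was above 0.1, so the number was not taken as pairing the arrays, although some groups shared part of the difference between replicates.

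Probes not well above background gave only bounds, for 274 genes higher and 473 genes lower in n-6 colitis.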

Other observations

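Genes of the seminal vesicle were read in these rats, which are labelled female. Svs4, a secretory protein of that gland, read 1.44 and -0.12 in n-6 colitis, against -6.07 and -7.15 in healthy colon, where it was not well above background, and was at least 117-fold higher. Svs6 read -0.64 and -2.22 in n-6 colitis and was at least 27.5-fold higher. Both were also read on replicate 1 of the alpha-linolenic acid group, at 4.58 (Svs4) and 2.34 (Svs6), and not on its replicate 2, at -6.99 and -7.28.

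Outside the gene groups above, Cbln1, a synaptic organiser of the cerebellin family, read 0.38 and -2.11 in n-6 colitis, against -6.84 and -6.12 in healthy colon, and was at least 32.4-fold higher. Kcns2, a silent subunit of potassium channels, read -2.73 and 0.52 in n-6 colitis and was at least 26.4-fold higher, with the n-6 arrays far apart. On the lower side, the carboxylesterase Ces1e was at least 35.6-fold lower and the fatty acid hydroxylase Cyp4f40 at least 18.0-fold lower. Among genes that neither group had wholly at background, those with the smallest p on the lower side included the amino acid transporter Slc6a20a, at -5.02 and -4.34 in n-6 colitis, against -2.00 and -1.72 in healthy colon, and the actin-severing Scin, at -4.46 and -3.90 against -1.44 and -1.07. Nptx2, a neuronal pentraxin, differed by -3.26, Klhdc8a by -3.80, Peg12 by -2.86, Rassf6 by -2.50, Prxl2a by -2.34, Sft2d2 by -2.05 and Caskin2 by -1.93, and none of these passed the threshold over all genes. Peg12 and Sft2d2 were well above background on 1 of the 2 n-6 arrays only.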
